A study of Mus musculus with 12 samples.

Results

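Genes of protein folding in the endoplasmic reticulum (ER) and of its stress response, 10 in all, were followed in CD4 T cells sorted from mouse kidneys: Hspa5, Hsp90b1, Pdia3, Pdia4, Pdia6, Calr, Canx, Xbp1, Atf4 and Ddit3. They were taken by symbol, all 10 were found among the 52632 genes of the deposited table, and all 10 passed the filter on low values (average FPKM of 1 or more), which left 19288 genes to be tested. FPKM counts the sequenced fragments of a gene relative to transcript length and to all fragments sequenced in that library. The 4 groups of 3 libraries were CD4 Keap1 KO mice after ischemia-reperfusion injury (IRI), WT C57BL6/J mice after IRI, CD4 Keap1 KO controls and WT C57BL6/J controls. For IRI, both kidneys were clamped for 30 min and harvested after 24 h of reperfusion. Keap1 encodes the adaptor that targets the transcription factor NRF2 for degradation. The KO line was made in house, per the labels, whose background strain for every library is C57BL6/J. How Keap1 was deleted, whether control mice had sham surgery, the age of the mice and whether each library came from its own animal are not stated, so the p-values speak for the spread among libraries, which may be technical.

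Proteins made for the cell surface or for secretion fold inside the ER, where chaperones and disulfide isomerases assist them. When unfolded protein accumulates, 3 membrane sensors, IRE1, PERK and ATF6, start the unfolded protein response (UPR). IRE1 splices Xbp1 mRNA into the form that encodes an active transcription factor, ATF6 is cut to release another, and PERK phosphorylates eIF2alpha, which favours translation of Atf4 and, through it, transcription of Ddit3. T cells depend on this machinery because their receptors and cytokines are all folded in the ER, and XBP1 and ATF4 both act in activated T cells. A value per gene does not separate spliced from unspliced Xbp1, and Atf4 activity is set largely at translation, so mRNA levels read neither branch directly.

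The 10 promoters are shown first because the chaperone genes are the classical carriers of the ER stress response element, the site at which ATF6 acts together with the CCAAT-binding factor NF-Y. The element was described from chaperone promoters such as these, so its presence here is not independent evidence. Windows of 300 bases, from 250 before to 50 after the RefSeq transcription start (GRCm38.p6), were searched on both strands for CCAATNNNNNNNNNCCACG. An exact match stood in 5 of the 10 windows, those of Hspa5, Hsp90b1, Pdia6, Calr and Canx, and in 39 of all 32851 RefSeq windows, or 0.119%. With 1 mismatch in the CCACG end, a match stood in the windows of Pdia3, Pdia4 and Ddit3, and at a further place in Hsp90b1, against 0.892% of all windows. The windows of Xbp1 (gene at chr11:5520659-5525893, plus strand) and Atf4 (gene at chr15:80255184-80257541, plus strand) held neither. The stretches below are written 5′ to 3′ along the gene's strand, capitals mark the element, and an element on the other strand reads as its reverse complement, ending in ATTGG.
Hspa5, chr2:34772010-34772058, plus strand: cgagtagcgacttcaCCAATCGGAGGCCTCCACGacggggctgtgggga
Hsp90b1, chr10:86705518-86705671, minus strand: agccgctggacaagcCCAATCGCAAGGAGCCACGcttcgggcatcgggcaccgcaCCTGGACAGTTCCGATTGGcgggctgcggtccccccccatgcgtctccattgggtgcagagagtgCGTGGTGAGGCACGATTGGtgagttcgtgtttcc
Pdia6, chr12:17266476-17266524, plus strand: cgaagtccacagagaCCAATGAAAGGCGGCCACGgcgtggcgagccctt
Calr, chr8:84847060-84847108, minus strand: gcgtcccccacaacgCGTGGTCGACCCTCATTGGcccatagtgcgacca
Canx, chr11:50325785-50325833, minus strand: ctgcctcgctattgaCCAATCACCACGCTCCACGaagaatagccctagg
Pdia3, chr2:121413858-121413906, plus strand, 1 mismatch: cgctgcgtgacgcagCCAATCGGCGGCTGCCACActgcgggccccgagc
Pdia4, chr6:47813587-47813635, minus strand, 1 mismatch: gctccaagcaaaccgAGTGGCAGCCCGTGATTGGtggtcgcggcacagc
Ddit3, chr10:127290687-127290735, plus strand, 1 mismatch: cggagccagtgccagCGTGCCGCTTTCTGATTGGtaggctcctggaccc

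The middle element of Hsp90b1 is the one with a mismatch. In Hspa5 the element began 65 bases before the start site, in Pdia6 98, in Canx 145 and in Calr 162, and the 2 exact elements of Hsp90b1 began 212 and 107 bases before it. None of the 10 windows held ATTGGNCCACG, a second arrangement of the element (0.0365% of all windows), TGACGTGG, an XBP1 core (0.676%), or TGATGNAA, the core bound by ATF4 with C/EBP factors (3.97%). A match is a description of the letters in these windows, and no match says only that the letters are not in them.

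**Figure D1:**
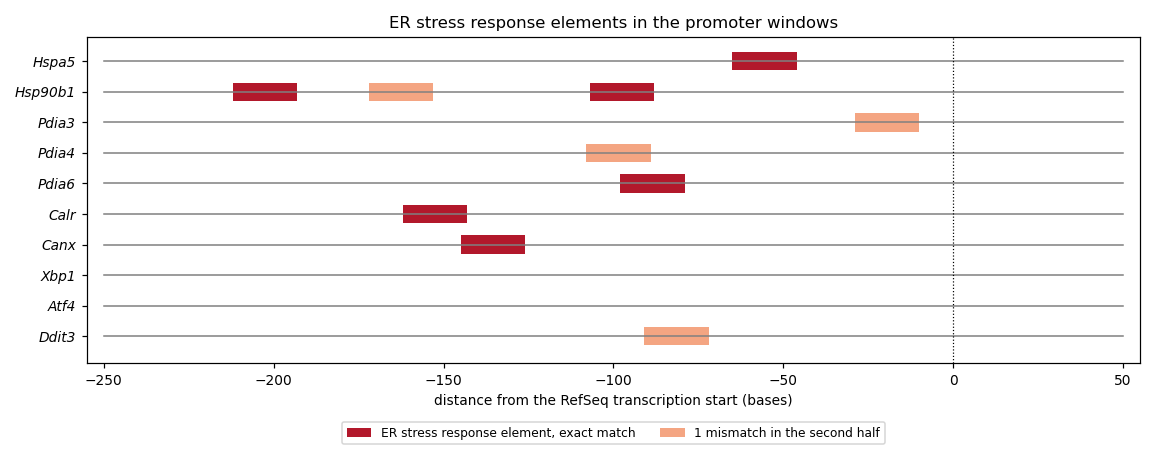
Position of ER stress response elements in the promoter window of each gene, with distance from the RefSeq transcription start in bases on the x axis. Dark bars are exact matches, pale bars have 1 mismatch, and each bar covers the whole element. Exact elements are seen in Hspa5, Hsp90b1, Pdia6, Calr and Canx, all before the start site.

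The sum of FPKM ran from 739969 to 2089551 over the 12 libraries, and no read counts come with the values, so their depth is unknown. T cell markers were present in every library: Cd3e was at 171 to 203 FPKM in KO IRI, 73.8 to 98.8 in WT IRI, 228 to 324 in KO control and 194 to 213 in WT control. Cd4 was at 149 to 237 FPKM in KO IRI, 49.7 to 70.7 in WT IRI, 183 to 382 in KO control and 85.7 to 101 in WT control. It was thus higher in KO than in WT without overlap in each condition. Keap1 was at 4.59 to 7.77 FPKM in the KO libraries and 6.03 to 9.87 in the WT libraries, while its NRF2-driven indicator Nqo1 was at 3.38 to 7.75 in KO and 0 to 0.543 in WT. In an earlier analysis 3 libraries stood apart, KO control 1, where the abundant transcript Malat1 was listed at 0, WT IRI 3 and WT control 3. The median gene was 0.29 higher in KO than in WT on the log2(FPKM + 1) scale, so values are also given after rescaling each library by its median ratio to the mean library, with factors from 0.755 in WT IRI 3 to 1.34 in KO control 1. Genes are compared below with limma on log2(FPKM + 1), p-values are adjusted over all 19288 genes, and a gene is said to have risen or fallen when its adjusted p was under 0.05.

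Hspa5 encodes BiP, the chaperone of the HSP70 family that also holds the UPR sensors inactive, and it had the highest level of the 10 genes with a mean of 252 FPKM over the 12 libraries and a range of 194 to 343. Atf4 followed with 156 FPKM (96.1 to 221), and within every library Hspa5 was at 1.27 to 2.26 times its level. Calr (115), Pdia3 (98.9) and Hsp90b1 (84.6) came next with ranges that overlapped. Canx averaged 49.3 FPKM, Pdia4 32.3, Pdia6 27.6, Xbp1 27.2 and Ddit3 21.9. The ranges of all neighbours in this order overlapped, so below Hspa5 it is an order of means only. Even Ddit3, the lowest, stood at the percentile 76.0 of tested protein-coding genes by mean level. All these levels are per transcript length. Exons of Hsp90b1, Pdia3, Pdia6 and Ddit3 overlap those of a gene on the other strand. Whether strand was used in counting is not stated, so their values may hold reads of that gene. Exons of Hsp90b1, Pdia4 and Ddit3 also overlap those of a gene on the same strand, which strand could not separate.

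**Figure D2:**
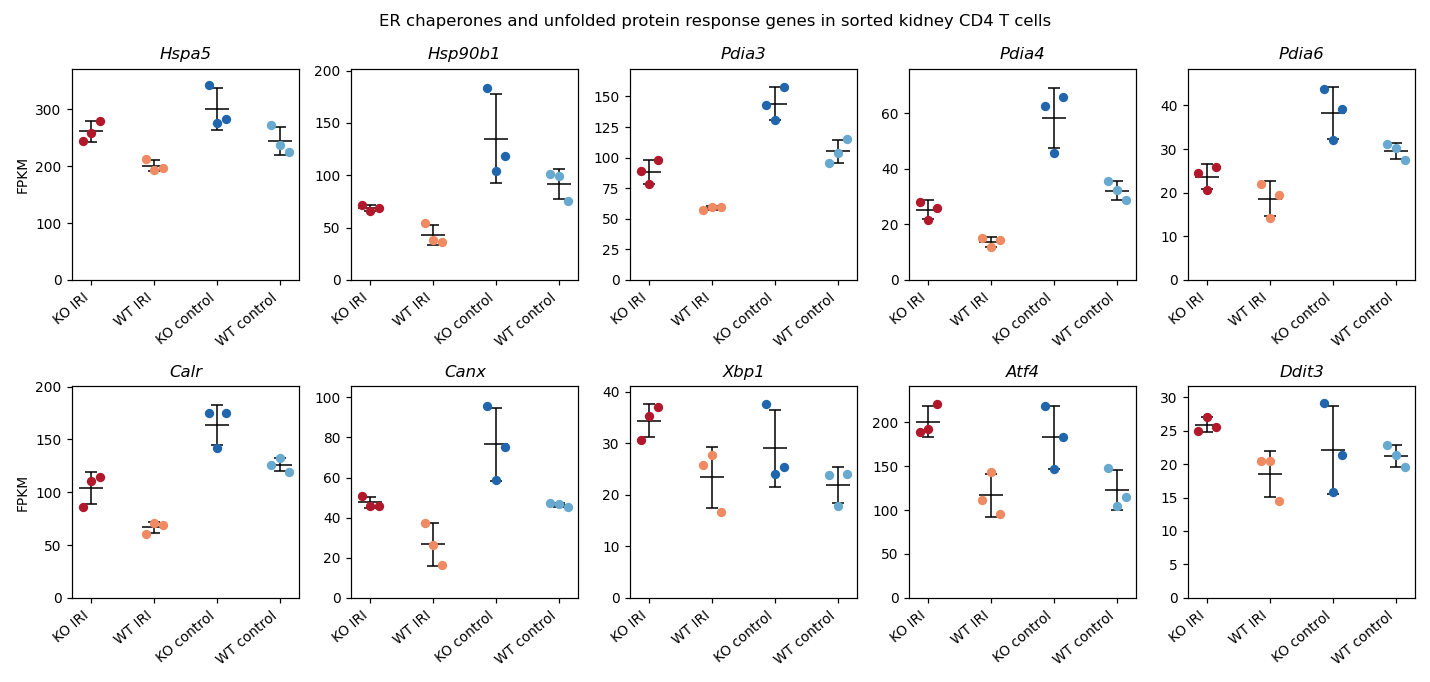
FPKM of each gene in every library, with 1 point per library and the mean ± SD of 3 libraries per group in black. The 6 chaperones from Hsp90b1 to Canx lie lower after IRI than in the controls of the same genotype, whereas Xbp1, Atf4 and Ddit3 overlap between IRI and control.

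Whether kidney injury changed the ER folding genes of the CD4 T cells was read from IRI against control, averaged over genotype. After IRI 6 of the 10 genes fell and none rose: Hsp90b1, Pdia3, Pdia4, Pdia6, Calr and Canx, all of them folding factors. Of all genes tested, 6.03% fell and 3.01% rose in this comparison. The median difference of the 10 genes was -0.706 on the log2(FPKM + 1) scale, against -0.0035 for all genes tested. BiP itself and the transcription factor genes Xbp1, Atf4 and Ddit3 did not pass the test.

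Pdia4, a disulfide isomerase of the ER lumen, changed most. It was at 28.2, 21.7 and 25.9 FPKM in KO IRI and 15, 11.8 and 14.4 in WT IRI, against 62.7, 45.7 and 65.9 in KO control and 35.5, 32.3 and 28.6 in WT control. All 6 IRI libraries lay below all 6 control libraries. The difference was -1.17 ± 0.13 (SE) with an adjusted p of 0.00073, from means of 19.5 FPKM after IRI and 45.1 FPKM in controls (n = 6 libraries each, limma).

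Hsp90b1 encodes GRP94, the HSP90 of the ER, which folds integrins and Toll-like receptors. Its values were 71.9, 65.9 and 68.4 FPKM in KO IRI and 54.0, 38.5 and 36.3 in WT IRI, against 183, 104 and 118 in KO control and 101, 98.8 and 75.1 in WT control. Again the 6 IRI libraries lay below the 6 control libraries, the nearest being 71.9 after IRI and 75.1 in a control. Its difference was -1.0 ± 0.17 (SE, adjusted p = 0.00507 by limma). KO control 1 held the highest value of Hsp90b1, and without that library the gene still fell, as did Pdia3, Pdia4, Pdia6 and Calr. Without KO control 1, WT IRI 3 and WT control 3 together, 4 genes fell, Pdia4 (-1.19), Hsp90b1 (-0.90), Calr (-0.79) and Pdia3 (-0.73).

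Calr and Canx encode calreticulin and calnexin, the soluble and the membrane-bound lectin that retain newly made glycoproteins until they are folded. Calr was at 86.4, 111 and 114 FPKM in KO IRI and 60.9, 70.6 and 68.6 in WT IRI, against 175, 142 and 175 in KO control and 126, 132 and 119 in WT control, with no overlap between IRI and control. Canx was at 50.9, 45.9 and 45.9 FPKM in KO IRI and 37.5, 26.4 and 16.3 in WT IRI, against 95.5, 58.8 and 75.2 in KO control and 47.3, 46.6 and 45.4 in WT control. For Canx the groups separated within each genotype only, since KO IRI and WT control lay at the same level. The differences were -0.78 ± 0.12 (SE, adjusted p = 0.00321) for Calr and -0.75 ± 0.19 (SE, adjusted p = 0.0347) for Canx by limma. The Canx call was the least firm of the 6, since it held when 3 of the 12 libraries were left out singly and was lost with each of the other 9 (adjusted p 0.0146 to 0.0825 over the 12), whereas the other 5 genes passed with each of the 12 left out.

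Pdia3, the isomerase that works on glycoproteins held by calnexin and calreticulin and also belongs to the MHC class I loading complex, was at 88.7, 78.5 and 98.0 FPKM in KO IRI and 57.3, 59.7 and 59.6 in WT IRI, against 143, 131 and 158 in KO control and 95.5, 104 and 115 in WT control. Only KO IRI 3 reached the level of a control library. Pdia6, an isomerase that binds IRE1 and PERK, was at 24.6, 20.6 and 26 FPKM in KO IRI and 22.1, 14.2 and 19.5 in WT IRI, against 43.7, 32.0 and 39.2 in KO control and 31.1, 30.2 and 27.6 in WT control, with no overlap. The differences were -0.76 ± 0.11 (SE, adjusted p = 0.00238) for Pdia3 and -0.66 ± 0.14 (SE, adjusted p = 0.0135) for Pdia6 by limma.

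Hspa5 was at 245, 259 and 280 FPKM in KO IRI and 212, 194 and 196 in WT IRI, against 343, 276 and 283 in KO control and 273, 237 and 225 in WT control. Its IRI libraries lay below the controls in WT and overlapped them by 1 library in KO. The difference was -0.24 ± 0.12 (SE) and did not pass the test (adjusted p = 0.258 by limma).

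None of the 3 transcription factor genes passed. Xbp1 was at 30.7, 35.4 and 37.0 FPKM in KO IRI and 25.8, 27.7 and 16.7 in WT IRI, against 37.6, 24.1 and 25.4 in KO control and 23.8, 17.8 and 24.1 in WT control (0.17 ± 0.17 SE, adjusted p = 0.579 by limma). Atf4, the factor for amino acid supply and redox balance, was at 189, 193 and 221 FPKM in KO IRI and 112, 144 and 96.1 in WT IRI, against 219, 147 and 183 in KO control and 148, 105 and 115 in WT control (0.04 ± 0.16 SE, adjusted p = 0.908). Ddit3, which encodes the pro-apoptotic factor CHOP, was at 24.9, 27.1 and 25.6 FPKM in KO IRI and 20.5, 20.5 and 14.5 in WT IRI, against 29.1, 15.9 and 21.3 in KO control and 22.8, 21.4 and 19.5 in WT control (0.027 ± 0.15 SE, adjusted p = 0.938). IRI and control libraries of all 3 genes overlapped in both genotypes, and a standard error of this size leaves room for changes smaller than those of the chaperones. Without the 3 libraries that stood apart, the averaged difference was 0.41 ± 0.12 (SE, adjusted p = 0.106) for Xbp1, 0.16 ± 0.16 for Atf4 and 0.18 ± 0.11 for Ddit3, and that of Ddit3 in KO was 0.47 ± 0.15 (adjusted p = 0.27 by limma).

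Within WT, 4 of the 10 genes fell after IRI (2.59% of all genes fell): Pdia4 by 1.17 (adjusted p = 0.00875), Hsp90b1 by 1.09 (0.0339), Calr by 0.91 (0.0177) and Pdia3 by 0.82 (0.0188), all on the log2(FPKM + 1) scale by limma. Within KO, 1 fell (0.539% of all genes fell): Pdia4, with a difference of -1.16 ± 0.19 (SE, adjusted p = 0.0216). Single libraries decided these counts: the count in WT was 1, Pdia4, without WT control 2, and 2 without WT control 1, WT control 3, WT IRI 1 or WT IRI 2, and the count in KO was 0 without KO control 1, KO control 3, KO IRI 2 or KO IRI 3 and 4 without KO control 2. Without the 3 libraries that stood apart it was 1 in WT, Hsp90b1, and 0 in KO. The size of the change was close in both genotypes for Pdia4, at -1.16 in KO and -1.17 in WT, and for Pdia6 it was -0.66 in each. No gene passed the test of the difference between the genotypes' responses, in which 0.00518% of all genes were called, and none of the 10 had an unadjusted p under 0.05 as deposited (3.35% of all genes had). That difference, KO minus WT, was 0.01 ± 0.27 (SE) for Pdia4, 0.16 ± 0.34 for Hsp90b1 and 0.25 ± 0.24 for Calr. It was widest for Ddit3, at 0.46 ± 0.31 (SE, unadjusted p = 0.161, adjusted p = 0.999 by limma), where the IRI minus control difference was 0.26 in KO and -0.20 in WT. After rescaling it was 0.50 ± 0.19 for Ddit3 (SE, unadjusted p = 0.0269, adjusted p = 0.906), the only one of the 10 with an unadjusted p under 0.05 on that scale (4.87% of all genes had).

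After rescaling, the same 6 genes fell in the averaged comparison (7.33% of all genes fell), with differences of -1.09 for Pdia4, -0.92 for Hsp90b1, -0.70 for Calr, -0.68 for Pdia3, -0.67 for Canx and -0.59 for Pdia6. In WT Canx joined the 4 genes (-0.79 ± 0.18 SE, adjusted p = 0.0236 by limma, 4.68% of all genes fell), and in KO Hsp90b1 joined Pdia4 (-0.82 ± 0.17 SE, adjusted p = 0.0422, 1.1% of all genes fell). Counted by overlap on the values as deposited, the 3 IRI libraries lay below the 3 controls for all 7 chaperones in WT (14.4% of all genes). In KO they did for 6, all but Hspa5 (9.15%). In both genotypes together these were the 6 genes that fell, against 4.7% of all genes. All 6 IRI libraries lay below all 6 controls as deposited for Hsp90b1, Pdia4, Pdia6 and Calr, against 2.19% of all genes. After rescaling, Hspa5 overlapped in WT, and Pdia3 and Canx also lay lower in all 6 IRI libraries. The share of all genes was not counted for overlap between IRI and control on that scale.

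**Figure D3:**
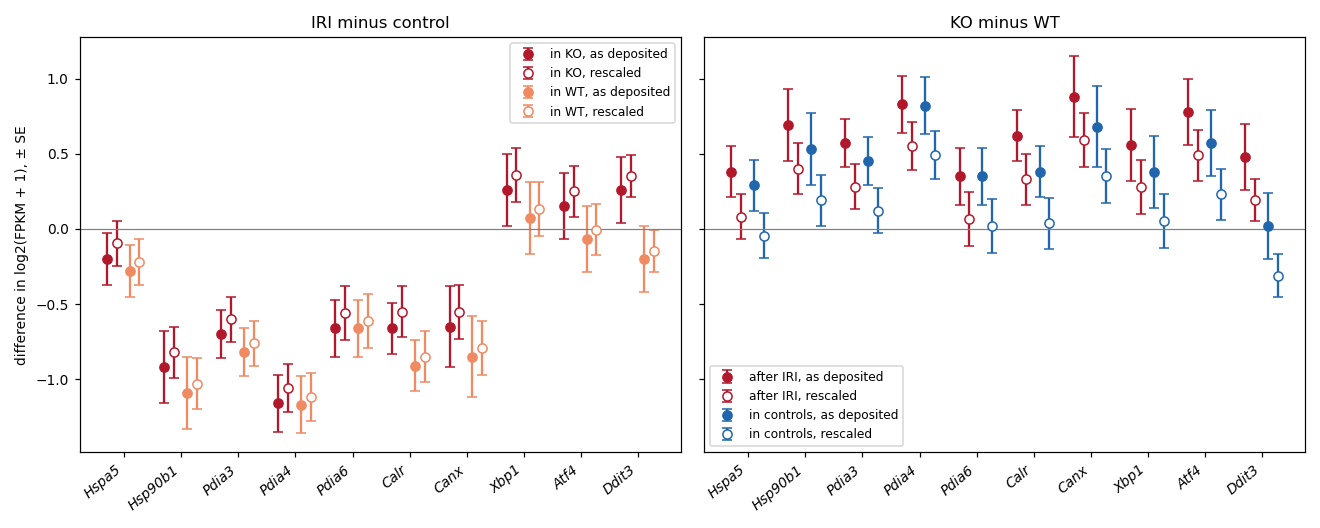
Differences in log2(FPKM + 1) ± SE for each gene, IRI minus control by genotype on the left and KO minus WT by condition on the right, with filled points as deposited and open points after rescaling. On the left, the 6 genes from Hsp90b1 to Canx lie between -0.55 and -1.17 in both genotypes on both scales. On the right, the points move down with rescaling, and those of Hspa5 and Ddit3 in controls pass below 0.

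The make-up of the chaperone mRNA shifted, as the unequal falls above entail, and this measure does not move when a library is rescaled. BiP made up 41.1%, 43.0% and 42.5% of the summed FPKM of the 7 chaperones in KO IRI and 46.2%, 46.7% and 47.8% in WT IRI, against 32.8%, 34.9% and 31.0% in KO control and 38.4%, 34.9% and 35.4% in WT control. Every IRI library was above every control library. Pdia4 went the other way, with 3.59% to 4.74% in KO IRI and 2.84% to 3.51% in WT IRI, against 5.79% to 7.21% in KO control and 4.50% to 5.01% in WT control.

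Hspa5 was 8.67 to 12.0 times as high as Pdia4 in KO IRI and 13.6 to 16.5 times in WT IRI, against 4.30 to 6.03 times in KO control and 7.35 to 7.88 times in WT control. The ratio was higher after IRI in each genotype without overlap, and lower in KO than in WT in each condition without overlap. Xbp1 was 1.09 to 1.64 times the level of Pdia4 in KO IRI and 1.16 to 2.35 times in WT IRI, against 0.386 to 0.599 times in KO control and 0.552 to 0.842 times in WT control. The ratio of Calr to Canx, the paired lectins, ran from 1.70 to 2.50 in KO IRI and 1.62 to 4.21 in WT IRI, against 1.83 to 2.42 in KO control and 2.62 to 2.82 in WT control, and overlapped between IRI and control in both genotypes. These shares and ratios are descriptions with no test, and they restate the differences of the same genes, Pdia4 being the one that changed most. How often other gene pairs separate in this way was not counted.

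**Figure D4:**
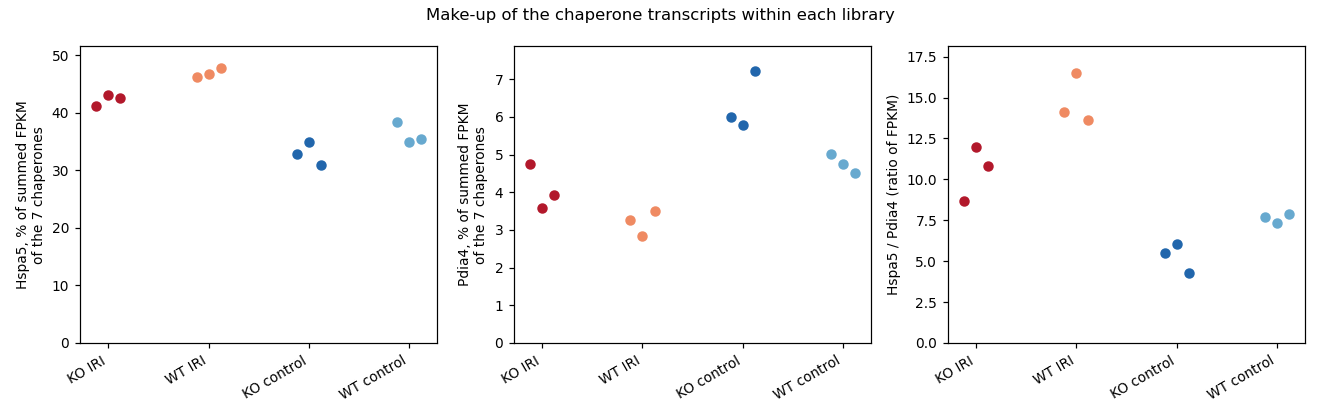
Hspa5 and Pdia4 as percent of the summed FPKM of 7 chaperones, and the ratio of Hspa5 to Pdia4, with 1 point per library. Hspa5 takes 41.1% to 47.8% of the sum in the 6 IRI libraries and 31.0% to 38.4% in the 6 controls, and Pdia4 a smaller share after IRI in each genotype.

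Most T cell markers fell with the chaperones, and markers of other cells passed in both directions. In this comparison, averaged over genotype, 6.03% of all genes fell and 3.01% rose. Of 13 CD4 T cell markers 8 fell after IRI, and their summed FPKM was 1648 to 2120 in KO IRI and 866 to 1014 in WT IRI, against 2184 to 3285 in KO control and 1750 to 1949 in WT control. In bulk RNA, fewer T cells in the sorted material and less RNA per T cell cannot be told apart. Set against that sum, the 7 chaperones together came to 28.1% to 36.6% in KO IRI and 44.8% to 47.5% in WT IRI, against 27.8% to 36.1% in KO control and 32.6% to 40.5% in WT control. Per T cell marker FPKM the chaperone sum thus overlapped between IRI and control in KO and was higher after IRI in WT. The sum is led by Hspa5. Pdia4 on this scale was at 1.31% to 1.38% in KO IRI, below 2.01% to 2.09% in KO control, and at 1.27% to 1.66% in WT IRI, overlapping 1.47% to 2.03% in WT control. Hsp90b1 overlapped in both genotypes, at 3.39% to 4.00% in KO IRI and 4.16% to 5.33% in WT IRI, against 3.59% to 6.02% in KO control and 3.86% to 5.76% in WT control. Calr and Pdia3 likewise overlapped between IRI and control in both genotypes, so that of these 4 chaperones only Pdia4, in KO, was lower without overlap. Calr was at 4.08% to 6.74% in KO IRI and 6.01% to 7.92% in WT IRI, against 5.33% to 6.51% in KO control and 6.12% to 7.22% in WT control. Pdia3 was at 4.19% to 5.23% in KO IRI and 5.65% to 6.88% in WT IRI, against 4.71% to 5.98% in KO control and 5.46% to 5.88% in WT control. Atf4 was at 8.91% to 11.8% in KO IRI and 11.0% to 15.6% in WT IRI, above 5.56% to 7.22% in KO control and 5.60% to 8.45% in WT control. Xbp1 was likewise at 1.45% to 2.15% in KO IRI and 1.93% to 2.99% in WT IRI, above 0.774% to 1.24% in KO control and 0.95% to 1.36% in WT control. Hspa5 was at 20.9% to 22.7% in WT IRI, above 11.5% to 15.6% in WT control. In KO it overlapped, at 11.5% to 15.7% after IRI and 8.62% to 12.6% in controls. The marker sum itself was lower after IRI in both genotypes, so a gene of unchanged FPKM, such as Atf4 (0.04 ± 0.16 SE), rises on this scale. How many of all genes separate in this way was not counted. This scale was chosen after the values were seen and carries no test.

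Plasma cells, which hold large amounts of ER chaperone mRNA, were looked for because they could enter a sort. Of 10 plasma cell markers 7 were tested and 3 fell after IRI (6.03% of all genes fell). The summed FPKM of the 10 was 76.5 to 261 in KO IRI and 54.7 to 68.0 in WT IRI, against 452 to 2653 in KO control and 122 to 189 in WT control, the highest being KO control 1. Jchain, the joining chain of secreted antibody, was at 1.37, 18.2 and 0.229 FPKM in KO IRI and 0.446, 0.0191 and 2.67 in WT IRI, against 166, 23.7 and 34.5 in KO control and 0.0318, 0.819 and 1.29 in WT control. Igkc, the antibody kappa light chain, was at 28, 112 and 7.16 FPKM in KO IRI and 27.8, 9.99 and 11.4 in WT IRI, against 1261, 187 and 254 in KO control and 70.1, 28.6 and 31.1 in WT control. Igkc was thus lower after IRI without overlap in both genotypes, and Jchain in KO only. Within each genotype 1 of the 7 tested markers fell (0.539% of all genes in KO and 2.59% in WT). Their median difference was -3.47 in KO and -0.121 in WT. Other markers of the list were mixed. Sdc1 averaged 1.3 FPKM in KO IRI and 1.13 in WT IRI, against 0.794 in KO control and 0.378 in WT control. In the same order, Derl3 averaged 2.59 and 3.99 against 3.95 and 2.48, and Mzb1 0.271 and 0.148 against 2.84 and 0.338. The part of plasma cell transcripts in the chaperone result was not tested. Of 9 B cell markers 4 fell, with sums of 8.55 to 12.9 FPKM in KO IRI and 8.94 to 21.2 in WT IRI, against 31.8 to 118 in KO control and 19.1 to 63.8 in WT control. No marker of either list was at 0 in all IRI libraries. Of 8 markers of CD8 T and NK cells 5 fell as well, and of 7 tested neutrophil markers 3 rose and 1 fell. Of 11 macrophage and monocyte markers 2 rose and 2 fell, and of 7 dendritic cell markers 2 fell. Of 10 tested tubule markers 1 rose, and of 2 tested endothelium and stroma markers 1 fell. The summed FPKM of 12 tubule markers was 17.2 to 629 in KO IRI and 15.7 to 191 in WT IRI, against 3.23 to 202 in KO control and 14.8 to 148 in WT control. The part of these cells was not tested either.

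Whether loss of Keap1 changed the 10 genes was read from KO against WT. As deposited, 6 of the 10 were higher in KO averaged over condition, when 11.9% of all genes were: Pdia4 by 0.83 ± 0.13 (SE, adjusted p = 0.0213 by limma), Canx by 0.78 ± 0.19 (0.0346), Atf4 by 0.68 ± 0.16 (0.0321), Hsp90b1 by 0.61 ± 0.17 (0.0435), Pdia3 by 0.51 ± 0.11 (0.0286) and Calr by 0.50 ± 0.12 (0.034). The median difference of the 10 genes was 0.507, against 0.292 for all genes tested. After rescaling none of the 10 passed (0.378% of all genes were higher), and the nearest were Pdia4 with 0.52 ± 0.12 (SE, adjusted p = 0.0588), Canx with 0.47 ± 0.13 (0.0779) and Atf4 with 0.36 ± 0.12 (0.13). The unadjusted p was under 0.05 on that scale for these 3 and for Hsp90b1, when it was for 21.4% of all genes. The direction of Ddit3 turned, with 0.25 as deposited and -0.056 after rescaling, while Hspa5 and Pdia6 came to 0.018 and 0.043. Leaving out single libraries moved the count as deposited between 0 and 9 genes. It was 0 without KO control 1, KO control 3, WT control 1 or WT control 2, 1 without KO IRI 1 or KO IRI 3, 2 without WT IRI 3 or WT control 3, 3 without KO IRI 2, and 0 without the 3 libraries that stood apart.

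After IRI, KO against WT gave none of the 10 past the threshold (0.0518% of all genes were higher), and the same held in controls (0.0259%). Those shares rest on single libraries, since leaving out 1 moved the calls over all genes, in either direction, between 0 and 552 after IRI and between 4 and 1961 in controls. The unadjusted p as deposited was under 0.05 for 9 of the 10 after IRI, all but Pdia6 (22.4% of all genes), and for 4 in controls, Pdia3, Pdia4, Canx and Atf4 (20.9%). After rescaling it was under 0.05 for 4 after IRI, Hsp90b1, Pdia4, Canx and Atf4 (16.5% of all genes), and for 2 in controls (11%), Pdia4 with 0.49 and Ddit3 with -0.31. As deposited the 3 KO IRI libraries lay above the 3 WT IRI libraries for those 9 genes, against 24.9% of all genes, and after rescaling for 5, Hsp90b1, Pdia4, Canx, Atf4 and Ddit3, against 11.8%. Pdia4 averaged 25.3 ± 3.3 FPKM in KO IRI and 13.7 ± 1.7 in WT IRI (SD, n = 3 each), and 58.1 ± 10.8 FPKM in KO control and 32.1 ± 3.5 in WT control. It was higher in all 3 KO libraries than in all 3 WT libraries of either condition, on both scales. Atf4 averaged 201 ± 17 FPKM in KO IRI and 117 ± 25 in WT IRI (SD, n = 3 each). Markers of T cells and of plasma cells moved the same way as deposited. Averaged over condition, 12 of 13 CD4 T cell markers and 4 of 7 tested plasma cell markers were higher in KO (11.9% of all genes were). Their median differences were 0.729 and 1.5, and in controls the plasma cell median was 2.63. No marker passed among those of B cells (median 0.0687), macrophages and monocytes (0.469), dendritic cells (0.329), neutrophils (-0.508) or tubule (0.365). Of 8 CD8 T and NK cell markers 1 was higher and 1 lower, and of 2 tested endothelium and stroma markers 1 was higher. The part of these cells in the KO values was not tested.

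Pairs of chaperones varied together more closely than chaperones with factors when group differences were included. Over the 12 libraries, on rescaled log2(FPKM + 1), the 21 pairs of chaperones had a median Pearson r of 0.82 (0.33 to 0.93), led by Hsp90b1 with Pdia4 and Pdia3 with Calr at 0.93 each. The 21 pairs of a chaperone with Xbp1, Atf4 or Ddit3 had a median of -0.10 (-0.53 to 0.20), and the 3 pairs among those factors lay between 0.35 and 0.74, with Xbp1 and Atf4 at the top. These correlations hold the difference between the 4 groups within them. With group means removed, the chaperone pairs had a median of 0.32 and spread from -0.79 to 0.85, the chaperone with factor pairs one of 0.021 and a spread from -0.66 to 0.59, and the factor pairs lay between 0.53 and 0.69. On that footing the 3 kinds of pairs overlapped. Among 5647 protein-coding genes averaging 10 FPKM or more, the 5 with the highest r with Hspa5 were Eef1akmt2 (0.89), Atp6v1a (0.78), H2afx (0.77), Xiap (0.77) and Top2a (0.76), whereas Calr came 12th and Canx stood at rank 1128. All these values are descriptions over 12 libraries that share their scaling.

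Genes that work beside the 10 were read from lists by role, in IRI against control averaged over genotype. In that comparison 6.03% of all genes fell and 3.01% rose. Counts of 1 to 3 in a list are given as values and not read as a result about the list. Of 17 tested cochaperones of BiP and lumenal folding helpers, 6 fell and 1 rose, with a median difference of -0.496. Sdf2l1, which acts with BiP and its J-domain partners, averaged 2.68 ± 0.62 FPKM after IRI and 7.74 ± 2.43 in controls (SD, n = 6 each) and fell in both genotypes, by 1.39 in KO (adjusted p = 0.0161) and by 1.05 in WT (0.0213 by limma). Fkbp2, a prolyl isomerase, fell by 0.94, Cnpy2 by 0.84 and Dnajb11, a J-domain partner of BiP, by 0.63. The gene that rose, named after its value was seen, was Sec63, which recruits BiP to the translocation channel (0.56 ± 0.15 SE, adjusted p = 0.0454). Of 15 disulfide bond enzymes 3 fell, led by Ero1l, the oxidase that recharges disulfide isomerases, with 8.63 ± 2.15 FPKM after IRI and 17.5 ± 4.1 in controls (a fall of 0.94 on the log2 scale, adjusted p = 0.00289).

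Of 21 genes of translocation into the ER and of N-glycosylation, 6 fell, among them Sec61g, a subunit of the translocation channel (-1.22), and Krtcap2, a subunit of the oligosaccharyltransferase (-1.07), with a list median of -0.255. Of 12 glycoprotein quality control genes 1 fell, Os9, the lectin that delivers misfolded glycoproteins for degradation (-0.73 ± 0.19 SE, adjusted p = 0.0423 by limma). None of 18 genes of ER-associated degradation passed, and their median was -0.134. The nearest were Nploc4, a VCP cofactor, with 0.59 ± 0.17 (adjusted p = 0.0601), which rose after rescaling (0.67, adjusted p = 0.0179), and its partner Ufd1 with 0.40 ± 0.16 (0.164).

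The signalling side gave calls in both directions, when 6.03% of all genes fell and 3.01% rose. Of 12 tested UPR sensors and their partners 1 fell and 2 rose. Atf6b, the relative of ATF6, fell by 1.21 (8.13 ± 3.15 FPKM after IRI and 19.6 ± 4.8 in controls, SD, n = 6 each). Creb3l2, another factor released by cutting at the Golgi, rose by 1.0, and Map3k5, the kinase downstream of IRE1 and TRAF2, by 0.98. Of 10 eIF2alpha kinases, phosphatase subunits and their partners 1 fell, Dnajc3, an ER cochaperone counted in the cochaperone list as well (-0.65 ± 0.16 SE, adjusted p = 0.0311 by limma). Of 32 tested ATF4 and CHOP target genes 3 rose and 3 fell, with a median of 0.0709, and after rescaling 6 rose and 3 fell, with a median of 0.136.

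The target genes that rose included Bcl2l11, which encodes the pro-apoptotic protein BIM and is a target of FOXO factors too. It averaged 137 ± 18 FPKM after IRI and 50 ± 12 in controls (SD, n = 6 each) and rose in both genotypes, by 1.28 in KO (adjusted p = 0.032) and by 1.63 in WT (0.00501 by limma). Slc7a11, the cystine transporter, rose by 1.0 and Slc38a2, a transporter of neutral amino acids, by 0.62, while Aldh18a1, of proline synthesis, fell by 0.88. The other 2 that fell, named after their values were seen, were Mthfd2, of mitochondrial folate metabolism (-0.65), and Slc1a5, a glutamine transporter (-0.56). Slc7a11 is an NRF2 target as well, and in KO against WT averaged over condition it did not pass (-0.48 ± 0.18 SE, adjusted p = 0.0873 by limma).

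**Figure D5:**
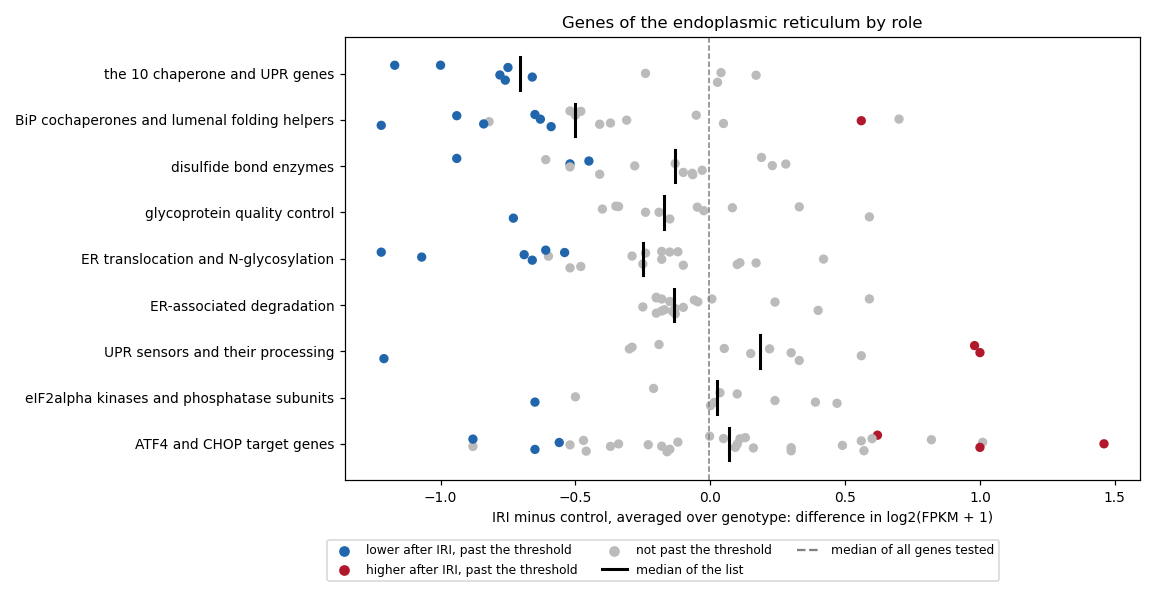
IRI minus control differences in log2(FPKM + 1), averaged over genotype, for the 10 genes and 8 further lists, with 1 point per tested gene. Blue points fell, red points rose, grey points did not pass, black bars are list medians and the dashed line is the median of all genes tested. The 10 genes have the lowest list median (-0.706), followed by the cochaperones of BiP (-0.496).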

How the data were processed

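RNA of CD4 T cells sorted from kidney was sequenced as paired 36 bp reads from a stranded total RNA kit with 1 ng of input, per the labels' protocols. The authors deposited 1 table of FPKM values per gene and library, per the file headers. Per the submitters' processing notes, the tools were Cufflinks 2.2.1, TopHat2 2.1.0, Partek 7.0 and bcl2fastq 2.17.1.14, with no role given, and the build was GRCm38. The annotation, strand setting and any scaling are not given in the sources used here, so reads of overlapping exons may be shared. Hsp90b1, Pdia3, Pdia6 and Ddit3 overlap a gene on the other strand. On the same strand, Hsp90b1 overlaps Gm15344 and the miRNA gene Gm25745, Pdia4 the miRNA gene Mir704, and Ddit3 a second gene of its own symbol. Low values had no common step from which whole reads could be recovered, so depth is unknown and no counting interval is given.

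Of the gene IDs, 52399 matched GENCODE mouse release 21 and took its symbols. Genes whose mean reached 1 FPKM (19288) were tested as log2(FPKM + 1), a scale that understates changes of low genes, with limma 3.58.1 in R 4.3.3 (1 mean per group, 12 libraries in 1 fit, eBayes with a mean-variance trend, 8 residual degrees of freedom). P-values were Benjamini-Hochberg adjusted within each of 7 comparisons, and the script was tested on simulated data. Rescaling used median ratios over 16018 genes above 0 in all libraries. Promoters came from RefSeq tables of GRCm38.p6, and all 10 symbols matched. Alternatives were quantile normalization, a common sum, pseudocounts of 0.1 and 5, no filter, no trend, a replicate block and left-out libraries. The 10 genes and all lists were chosen with earlier results of these data known. Named list genes were up to 4 per list with the smallest adjusted p past the threshold, or the 2 nearest where none passed.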

Additional observations from a re-analysis of the deposited data

How the results depend on the processing

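The fall of Hsp90b1, Pdia3, Pdia4 and Calr after IRI, averaged over genotype, passed under every alternative run, and the count of the 10 genes was 4 to 6 throughout. It was 4 without the 3 libraries that stand apart. Other counts moved, and the cause was not tested. KO against WT averaged over condition gave 6 genes as deposited, 0 rescaled, 0 with quantile normalization, 0 with a common sum, 1 with no filter, 0 without the 3 libraries and 0 to 9 leaving out 1 library. IRI in WT gave 4, 0 with a common sum, 1 without the 3 libraries and 1 to 4 leaving out 1. IRI in KO gave 1, 2 rescaled, 2 with quantile normalization, 0 with a common sum, 0 without the 3 libraries and 0 to 4 leaving out 1. KO IRI against WT IRI and KO control against WT control each gave 0, and 0 to 1 leaving out 1. Over all genes, leaving out 1 library moved the calls of KO against WT averaged over condition from 2639 to between 34 and 5898, and processing choices gave 14 to 2582. For the other comparisons, all-gene calls and their range over processing choices were 1744 (1027 to 2644) for averaged IRI, 729 (109 to 1767) for IRI in WT, 167 (54 to 398) for IRI in KO, 11 (0 to 14) for KO IRI against WT IRI, 5 (3 to 10) for KO control against WT control and 1 (0 to 3) for the interaction. Leaving out 1 library gave 1044 to 2615, 255 to 917, 44 to 848, 0 to 552, 4 to 1961 and 2 to 12 in the same order, and leaving out the 3 libraries gave 1068, 224, 40, 19, 31 and 28.

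Whether replicate numbers pair the libraries is not stated and was not settled. The deviations of 18 same-numbered pairs correlated with a median of 0.0192 (-0.0371 to 0.202). Those of 36 differently numbered pairs had a median of -0.00843 (-0.147 to 0.119). In each set 1 pair exceeded 0.1, and 7 of 12 libraries correlated best with their own number. The replicate block gave 6 genes for KO against WT averaged over condition, 4 for IRI in WT, 1 for IRI in KO, 6 for averaged IRI and 0 for the rest, and 1687 calls over all genes for KO against WT averaged over condition, and 3 for KO IRI against WT IRI.

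Some small log2 differences that did not pass changed sign. In KO IRI against WT IRI, quantile normalization gave -0.076 for Hspa5 and -0.071 for Pdia6, and a common sum gave -0.30 for Hspa5, -0.10 for Pdia3, -0.31 for Pdia6, -0.054 for Calr, -0.10 for Xbp1, -0.18 for Ddit3, -0.058 for Dad1 and -0.073 for Tmbim6. In KO control against WT control, rescaling gave -0.046 for Hspa5 and -0.31 for Ddit3. Quantile normalization gave -0.34 for Hspa5, -0.051 for Pdia3, -0.068 for Pdia6, -0.16 for Calr, -0.036 for Xbp1 and -0.39 for Ddit3, which was -0.22 with a common sum, -0.25 without the 3 libraries and -0.19 to 0.22 leaving out 1. In KO against WT averaged over condition, quantile normalization gave -0.21 for Hspa5, -0.069 for Pdia6 and -0.15 for Ddit3, a common sum gave -0.13, -0.10 and -0.20 for the same genes, and rescaling gave -0.056 for Ddit3.

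In IRI in WT, leaving out 1 library gave -0.061 to 0.29 for Xbp1 and -0.23 to 0.074 for Atf4, which was 0.028 without the 3 libraries. In IRI in KO, a common sum gave -0.16 for Xbp1, -0.28 for Atf4, -0.16 for Ddit3 and -0.028 for Ufd1. In averaged IRI, a common sum gave -0.041 for Xbp1, -0.17 for Atf4 and -0.18 for Ddit3, and leaving out 1 library gave -0.039 to 0.11 for Atf4 and -0.075 to 0.13 for Ddit3. In the interaction, a common sum gave -0.35 for Hspa5, -0.26 for Hsp90b1, -0.31 for Pdia3, -0.40 for Pdia4, -0.41 for Pdia6, -0.18 for Calr, -0.22 for Canx, -0.24 for Xbp1, -0.22 for Atf4, -0.043 for Ppp1r15b and -0.071 for Tmx3. A pseudocount of 5 gave -0.064 for Pdia4 and -0.021 for Pdia6, which was -0.0026 with quantile normalization. Leaving out 1 library gave -0.00024 to 0.40 for Hsp90b1, -0.15 to 0.11 for Pdia4, -0.17 to 0.13 for Pdia6, -0.10 to 0.48 for Canx and -0.031 to 0.38 for Xbp1.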
